A study of Mus musculus with 6 samples.

Results

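The 5 genes *Saa1*, *Saa2*, *Saa4*, *Mt2* and *Steap4* are effector genes of the hepatic acute-phase response, and all 5 have a row among the 257 genes of the deposited table. They were chosen by name, with earlier results of the same 6 livers known, from a table whose rows had themselves been selected on the comparison of TBG-*Zrsr1* with TBG-Vec mice. Their differences between the groups are therefore given as a description, without a test. Liver RNA came from 3 TBG-Vec and 3 TBG-*Zrsr1* mice, all wild-type C57BL/6J animals fed a high-fat diet (HFD) for 13 weeks. Each mouse had received an adeno-associated virus (AAV) by tail vein, carrying either *Zrsr1*, a minor intron splicing factor, or the vector control. The TBG promoter restricts expression of the insert to hepatocytes, whereas the RNA came from whole liver. The age of the mice is not given. Poly(A)-selected RNA was sequenced, and the deposited values are whole-number counts per gene and mouse.

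The acute-phase response is the liver's rapid change in gene output after infection, injury or inflammation, set off mainly by the cytokines IL-6 and IL-1, which act through STAT3, NF-κB and C/EBP factors. Serum amyloid A (SAA) proteins are small apolipoproteins that travel on high-density lipoprotein, some of them inducible and others made constitutively. The same response changes how the liver handles metals: metallothioneins bind zinc and copper, and STEAP metalloreductases reduce iron and copper ions.

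All 5 genes were counted more often in every TBG-*Zrsr1* mouse than in any TBG-Vec mouse. In the whole table, 65 of 257 genes (25.3%) had this pattern, and these are all the genes with a higher mean in TBG-*Zrsr1* mice. Of the 192 genes with a lower mean, 190 had every TBG-*Zrsr1* mouse below every TBG-Vec mouse. Nothing is read from the 5 genes against these shares, since they were chosen on the same contrast. With a call defined as a change of more than 1.5-fold at an adjusted p below 0.05 in edgeR's quasi-likelihood test, 48 of the 257 genes (18.7%) were called higher and 108 lower. All 257 genes of this selected table had an adjusted p under 0.05, so that the 5 genes are among the 48 is a consequence of how table and genes were chosen and not a test of them. The counts were compared without rescaling between libraries, because the totals over the listed genes, from 174448 to 283414, are not library depths, which are unknown. Rescaling by TMM factors over the listed genes raised the median log2 fold change of the table by 0.52, those of the 5 genes by a similar amount, to 1.35 for *Saa4*, 1.52 for *Steap4* and 1.53 for *Saa2*, and gave 65 genes called higher and 10 called lower. In bulk liver, more cells of a type and more RNA per cell cannot be told apart, and the same holds for fewer cells and less RNA.

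*Saa1* and *Saa2* encode the inducible, circulating SAA proteins of the mouse liver. *Saa1* was counted 593, 504 and 495 times in TBG-Vec mice 1, 2 and 3 and 1852, 1847 and 1034 times in TBG-*Zrsr1* mice 1, 2 and 3. The TBG-Vec livers lay close together, whereas TBG-*Zrsr1* mouse 3 stood apart from the other 2 of its group, though still 1.74-fold above the highest TBG-Vec mouse. The group means were 531 ± 54.2 and 1578 ± 471 counts (SD, n = 3 each), or 1.57 as a log2 fold change (standard error 0.23). *Saa2* was counted 482, 313 and 338 times in the TBG-Vec mice and 949, 777 and 551 times in the TBG-*Zrsr1* mice, numbered as before. Here the groups came nearest to each other among the 5 genes, with 1.14-fold between the highest TBG-Vec mouse, mouse 1, and the lowest TBG-*Zrsr1* mouse, mouse 3. Its means of 378 ± 91.2 and 759 ± 200 counts (SD, n = 3 each) gave a log2 fold change of 1.01 (standard error 0.23).

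*Saa4* encodes the constitutive SAA, which in the textbook account responds little to inflammation. It was counted 3341, 2516 and 2169 times in TBG-Vec mice 1 to 3 and 4300, 5364 and 4436 times in TBG-*Zrsr1* mice 1 to 3. TBG-Vec mouse 1 was again the highest of its group, but in the TBG-*Zrsr1* group mouse 1, and not mouse 3, was the lowest. The means were 2675 ± 602 and 4700 ± 579 counts (SD, n = 3 each), with a log2 fold change of 0.81 (standard error 0.20), the smallest of the 5. Without TBG-*Zrsr1* mouse 1 it was 0.87 and that of *Saa2* 0.81, so the order of these 2 genes rests on that mouse. The constitutive gene was thus higher as well, by a factor of 1.76 in the ratio of means against 2.97 for *Saa1* and 2.01 for *Saa2*.

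*Mt2* encodes metallothionein 2, a cysteine-rich protein that binds zinc and copper and is induced by metals, glucocorticoids and inflammatory cytokines. It had the lowest counts of the 5 genes, with 172, 65 and 180 in TBG-Vec mice 1 to 3 and 547, 548 and 244 in TBG-*Zrsr1* mice 1 to 3. A single mouse in each group lay far below the other 2, mouse 2 among the TBG-Vec mice and mouse 3 among the TBG-*Zrsr1* mice. The highest mouse exceeded the lowest 2.77-fold within the TBG-Vec group and 2.25-fold within the TBG-*Zrsr1* group, the widest spread among the 5 genes. Counting error is 12.4% of the value of TBG-Vec mouse 2; the parts of library preparation and of depth, which is unknown, in this spread were not tested. The means were 139 ± 64.2 and 446 ± 175 counts (SD, n = 3 each), and the log2 fold change of 1.68 was the largest of the 5 and had the largest standard error, 0.36. Without TBG-Vec mouse 2 the log2 fold change of *Mt2* was 1.34, below that of *Saa1* in the same fit, 1.54.

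*Steap4* encodes a metalloreductase of the STEAP family, which passes electrons to ferric and cupric ions and is known to respond to inflammatory cytokines. It was counted 1831, 1399 and 1469 times in TBG-Vec mice 1 to 3 and 3496, 3310 and 2532 times in TBG-*Zrsr1* mice 1 to 3. TBG-Vec mouse 1 was the highest and TBG-*Zrsr1* mouse 3 the lowest of their groups, as for *Saa2*. The means of 1566 ± 232 and 3113 ± 511 counts (SD, n = 3 each) gave a log2 fold change of 0.99 (standard error 0.19), the smallest standard error of the 5.

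**Figure D1:**
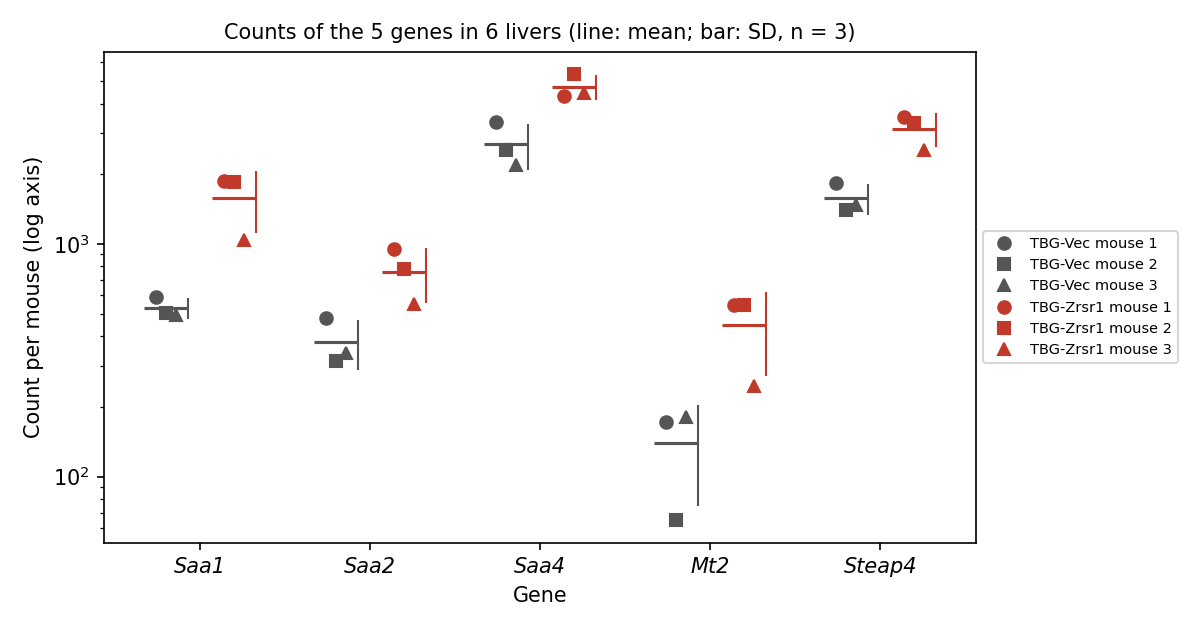
Counts of *Saa1*, *Saa2*, *Saa4*, *Mt2* and *Steap4* in each of the 6 livers on a log axis, with TBG-Vec mice in grey and TBG-*Zrsr1* mice in red; horizontal lines are group means and vertical bars the SD (n = 3). The groups do not overlap in any of the 5 genes, and TBG-*Zrsr1* mouse 3 (red triangle) is the lowest of its group in 4 of the 5.

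The 5 genes differed in how the mice of a group were ordered by their unscaled counts. TBG-*Zrsr1* mouse 3 was the lowest of its group in 4 of the 5 genes, all but *Saa4*, and TBG-Vec mouse 1 was the highest of its group in 4 of the 5, all but *Mt2*. Over the 65 genes of the table with a higher mean in TBG-*Zrsr1* mice, mouse 3 was the lowest of that group in 25, mouse 1 in 21 and mouse 2 in 19, and TBG-Vec mouse 1 was the highest of its group in 21, mouse 2 in 26 and mouse 3 in 18. Leaving out TBG-*Zrsr1* mouse 3 raised the log2 fold change of *Saa1* to 1.80, of *Saa2* to 1.19, of *Mt2* to 1.98 and of *Steap4* to 1.12, while that of *Saa4* was 0.85. Relative to the TBG-Vec mean, mouse 3 stood at 1.95 for *Saa1*, 1.46 for *Saa2*, 1.66 for *Saa4*, 1.755 for *Mt2* and 1.62 for *Steap4*. In these unscaled counts, mice 1 and 2 of that group were much alike in *Saa1*, at 3.49 and 3.48, and in *Mt2*, both at 3.94.

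Levels can be compared between genes only per length, here as counts per kilobase of 1 annotated transcript with a curated coding sequence for each gene. In TBG-Vec mice *Saa4* was the highest, at 1263 ± 284 counts per kilobase (SD, n = 3), followed by *Saa1* at 701 ± 71.6, *Saa2* at 579 ± 140, *Steap4* at 467 ± 69.2 and *Mt2* at 204 ± 94.2. The SD ranges of *Saa1* and *Saa2* overlapped, as did those of *Saa2* and *Steap4*, although every TBG-Vec mouse held them in this order. In TBG-*Zrsr1* mice the means were 2219 ± 273 for *Saa4*, 2084 ± 622 for *Saa1*, 1164 ± 306 for *Saa2*, 928 ± 153 for *Steap4* and 654 ± 257 for *Mt2*, in counts per kilobase. Here the SD ranges of each gene and the next in this order overlapped. The order rests on which transcript each of the *Saa1* and *Saa2* rows stands for, since the names are exchanged between annotations. With the 2 lengths exchanged, an alternative chosen after seeing the data, *Saa1* was at 2420 ± 722 in TBG-*Zrsr1* mice, above the mean of *Saa4*, and *Saa2* was below *Steap4* in TBG-Vec mouse 2, at 413 against 417, and in TBG-*Zrsr1* mouse 3, at 728 against 755. By its own length, *Saa1* was above *Saa4* in TBG-*Zrsr1* mouse 1 alone, and with the lengths exchanged in mice 1 and 2.

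Within the SAA genes, the mixture moved towards *Saa1*. Of the counts assigned to *Saa1* and *Saa2* together, *Saa1* made up 55.2% (95% Wilson interval 52.2 to 58.1), 61.7% (58.3 to 65.0) and 59.4% (56.1 to 62.7) in TBG-Vec mice 1 to 3. In TBG-*Zrsr1* mice 1 to 3 the share was 66.1% (64.3 to 67.8), 70.4% (68.6 to 72.1) and 65.2% (62.9 to 67.5). Every TBG-*Zrsr1* mouse was above every TBG-Vec mouse, with means of 58.8 ± 3.31% and 67.2 ± 2.76% (SD, n = 3 each), although the intervals of TBG-Vec mouse 2 overlapped those of TBG-*Zrsr1* mice 1 and 3. The intervals cover counting error only. A share within 1 library does not change with the scaling between libraries. *Saa4* made up 50.9%, 50.9% and 46.6% of the SAA counts per kilobase in TBG-Vec mice 1 to 3, against 34.2%, 41.1% and 48.6% in TBG-*Zrsr1* mice 1 to 3. Here the groups overlapped, through TBG-*Zrsr1* mouse 3, with the *Saa1* and *Saa2* lengths as named or exchanged.

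**Figure D2:**
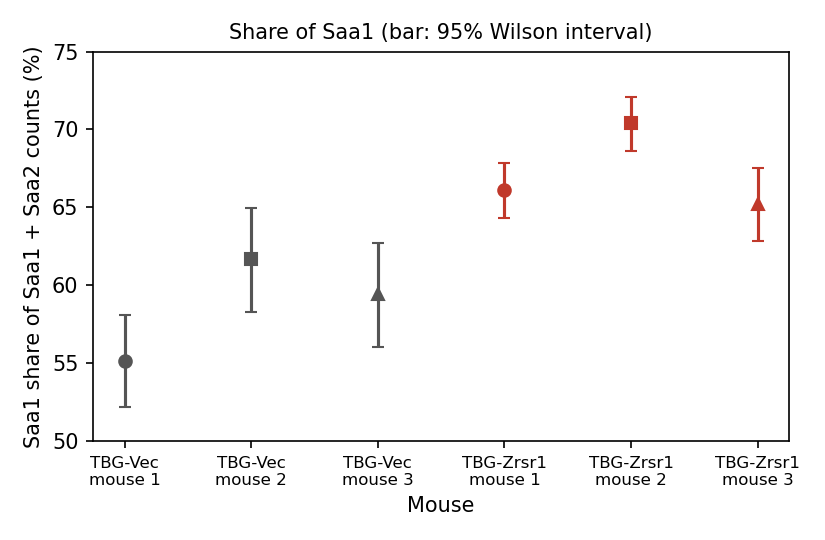
Share of *Saa1* in the counts of *Saa1* and *Saa2* together in each of the 6 livers, in percent, with 95% Wilson intervals as bars; the vertical axis does not start at 0. The TBG-Vec mice lie between 55.2 and 61.7% and the TBG-*Zrsr1* mice between 65.2 and 70.4%.

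The 3 SAA genes are neighbours on chromosome 7 (GRCm38.p6, RefSeq). *Saa4* lies at chr7:46727992-46732603 and *Saa1* at chr7:46740497-46743181, both on the minus strand, and *Saa2* lies at chr7:46751833-46754313 on the plus strand. *Saa1* and *Saa2* are transcribed away from each other from first bases 8652 bases apart, and the 3 genes span 26322 bases. *Saa3*, the remaining gene of the family, lies beside *Saa4* at chr7:46711998-46719615, and its values were not analysed here. *Mt2* lies at chr8:94172618-94173567 on the plus strand, 5316 bases before *Mt1*, also not analysed here, and *Steap4* lies at chr5:7960472-7982213 on the plus strand.

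**Figure D3:**
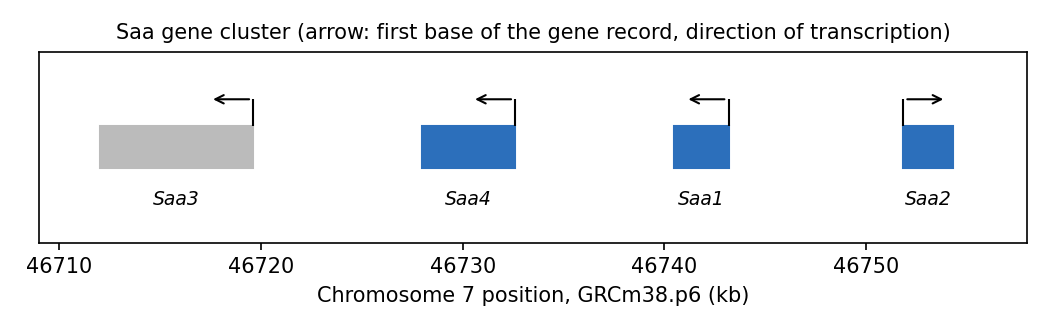
Map of the *Saa* cluster on mouse chromosome 7 (GRCm38.p6, position in kilobases), drawn to scale, with *Saa4*, *Saa1* and *Saa2* in blue, *Saa3* in grey and arrows at the first base of each gene record. *Saa1* and *Saa2* point away from each other with first bases 8652 bases apart.

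*Saa1* and *Saa2* are alike in sequence, and whether their shares depend on how reads were assigned was not tested. Their coding sequences, each 366 bases without the stop codon, differ at 18 bases and are 95.1% identical, against 79.2% for *Mt2* and *Mt1* and 65.0% for *Saa1* and *Saa4*. Of the windows of 50 bases in the *Saa1* transcript, 7.20% occur unchanged in that of *Saa2* and 1.27% in that of *Saa3*, and of the windows of 100 bases, 0% in either. *Mt2* shared no window of 50 bases with *Mt1*, *Steap4* none with *Steap1*, *Steap2* or *Steap3*, and *Saa4* none with *Saa1* or *Saa2*. The stretch of 120 bases with the most differences, bases 70 to 189 of the coding sequence with 12 of the 18, is shown from the GENCODE M39 transcripts. Reads of the 2 genes can be told apart only where the transcripts differ, here and elsewhere. Capitals mark the bases that differ.
Saa1 coding: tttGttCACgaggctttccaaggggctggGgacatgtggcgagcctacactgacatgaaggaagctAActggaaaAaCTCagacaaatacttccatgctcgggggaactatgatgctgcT
Saa2 coding: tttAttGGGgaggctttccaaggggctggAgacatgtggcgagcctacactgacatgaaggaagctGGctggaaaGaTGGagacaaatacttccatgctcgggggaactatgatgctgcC
The length of the reads is not given, and the sources name different programs, of which RSEM shares reads that fit several genes and HTSeq by default leaves them out. Older annotations also use the names *Saa1* and *Saa2* the other way round, and RefSeq lists each as a synonym of the other, so the table's 2 rows cannot be tied to coordinates with certainty. Summed into 1 feature, *Saa1* and *Saa2* had 1075, 817 and 833 counts in TBG-Vec mice 1 to 3 and 2801, 2624 and 1585 in TBG-*Zrsr1* mice 1 to 3. That sum depends on neither the naming nor a division of reads between the pair, and its log2 fold change was 1.36.

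The promoters of the 5 genes were searched because the genes were higher together in the same livers. RefSeq gave a window of 300 bases on GRCm38.p6, from 250 bases before a start of transcription to 50 after, for all 5. That start is the first base of the gene as given above for 4 of the 5, whereas for *Saa1* it is base 46742980, which lies 201 bases inside the gene. Letters were matched on both strands, N standing for any base, and 32851 windows of the same length gave the share holding each motif. The core of the metal response element (TGCACNC or TGCGCNC) occurs in 25.7% of all windows, the STAT letters TTCNNNGAA in 8.30%, the C/EBP letters TTGCNNAA in 10.8%, the NF-κB letters GGNNTTTCC in 5.82%, the glucocorticoid receptor letters AGAACA in 19.0% and the TATA box letters TATAAA in 13.6%. The STAT and NF-κB letters can overlap each other, but no matches overlapped in the 5 windows. A match is a description of the letters and not evidence of a bound site, and no match says only that these letters are not in this window.

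Each of the 5 windows held the C/EBP letters. They began 182 bases before the start used for *Saa1* and 183 before that of *Saa2*, both times as TTGCACAA; in *Saa1* this position, 46743162, lies within the gene as RefSeq bounds it. *Saa4* held 2 matches, and *Mt2* and *Steap4* 1 each. The windows of *Saa1* and *Saa2* are 95.3% identical over an alignment of 301 columns, so their shared match is not an independent observation, and neither held any other motif of those searched. The *Saa4* window held none of the others either. *Mt2* was the only one of the 5 with the metal response element core, with 4 matches, and 0.517% of all windows hold 4 or more. *Steap4* was the only one of the 5 with the STAT letters (TTCCCGGAA, beginning 116 bases before its start), the NF-κB letters and the TATA box letters, each with 1 match. None of the 5 windows held AGAACA. The windows are shown so that the letters and their spacing can be read; they are printed 5′ to 3′ in the direction of transcription, and capitals mark the matches.
Saa1 chr7:46742931-46743230 minus strand: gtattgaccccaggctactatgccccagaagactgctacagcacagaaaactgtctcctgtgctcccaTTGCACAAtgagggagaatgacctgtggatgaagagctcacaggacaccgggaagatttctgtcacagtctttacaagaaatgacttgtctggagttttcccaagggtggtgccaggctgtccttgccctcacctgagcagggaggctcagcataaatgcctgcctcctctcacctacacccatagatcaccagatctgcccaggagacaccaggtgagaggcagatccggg
Saa2 chr7:46751583-46751882 plus strand: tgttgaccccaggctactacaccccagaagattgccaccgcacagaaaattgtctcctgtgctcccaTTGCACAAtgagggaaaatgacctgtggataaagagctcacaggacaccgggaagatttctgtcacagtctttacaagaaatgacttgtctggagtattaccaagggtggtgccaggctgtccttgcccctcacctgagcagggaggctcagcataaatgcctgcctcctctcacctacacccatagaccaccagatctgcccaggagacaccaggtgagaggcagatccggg
Saa4 chr7:46732554-46732853 minus strand: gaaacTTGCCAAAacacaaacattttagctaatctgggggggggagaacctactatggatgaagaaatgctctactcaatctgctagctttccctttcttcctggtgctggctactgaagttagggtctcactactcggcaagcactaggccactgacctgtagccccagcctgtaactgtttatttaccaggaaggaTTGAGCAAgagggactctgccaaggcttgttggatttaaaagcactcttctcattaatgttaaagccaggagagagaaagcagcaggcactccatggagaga
Mt2 chr8:94172368-94172667 plus strand: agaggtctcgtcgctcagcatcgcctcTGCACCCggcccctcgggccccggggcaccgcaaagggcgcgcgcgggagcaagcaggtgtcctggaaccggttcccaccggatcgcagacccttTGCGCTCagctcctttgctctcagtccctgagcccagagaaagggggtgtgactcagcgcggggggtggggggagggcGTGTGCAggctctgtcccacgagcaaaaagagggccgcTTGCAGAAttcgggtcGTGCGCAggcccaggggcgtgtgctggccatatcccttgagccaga
Steap4 chr5:7960222-7960521 plus strand: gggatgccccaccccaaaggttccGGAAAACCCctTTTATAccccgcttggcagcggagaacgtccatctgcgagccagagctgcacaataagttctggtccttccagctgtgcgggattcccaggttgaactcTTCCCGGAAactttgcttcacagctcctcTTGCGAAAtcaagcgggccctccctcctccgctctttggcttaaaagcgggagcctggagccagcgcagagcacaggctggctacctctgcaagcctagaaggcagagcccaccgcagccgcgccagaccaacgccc

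Other genes of the same pathways came from lists written with earlier results known. Of 125 genes in the 8 pathway lists, 12 have a row in the table, the 5 genes and 7 others, and of these 7, 6 were called higher and 0 lower, beside 43 of the 252 genes of the table outside the 5. Nothing is read from these counts, since the table was selected on the contrast. Of the SAA family, 3 of 4 genes have a row. None of 32 other positive and none of 10 negative acute-phase proteins has one, so the 5 genes cannot be set beside haptoglobin, fibrinogen or albumin. Of 11 genes for metallothioneins and zinc, and of 14 glucocorticoid targets, *Mt2* alone has a row. A gene without a row was not analysed here, and these counts say nothing of its level. For inflammation genes, the paper's own qPCR of HFD-fed TBG-Vec and TBG-*Zrsr1* livers found no significant change. It also reports unaltered phosphorylation of an NF-κB subunit in these livers.

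Beside *Mt2* and *Steap4*, 2 of the 26 genes for iron and copper handling have a row. *Steap3*, the STEAP reductase of the transferrin cycle, did not follow *Steap4*: it had 206, 218 and 229 counts in TBG-Vec mice 1 to 3 and 178, 134 and 161 in TBG-*Zrsr1* mice 1 to 3. Its groups did not overlap, as in 190 of the 192 genes with a lower mean. Its log2 fold change of -0.46 (standard error 0.16) was within the fold of 1.5, but its direction depends on the scaling: over the 4 rescalings it ran from -0.07 to 0.05, with the sign reversed in 3 of them. *Commd1*, which takes part in copper export, had means of 379 ± 37.3 and 1988 ± 55.8 counts (SD, n = 3 each), but *Zrsr1* lies within the *Commd1* locus, and reads of the AAV insert cannot be separated from those of *Commd1* in this table. In unscaled counts, the SD of *Commd1* among the TBG-*Zrsr1* mice was 2.81% of its mean. The same value was 12.3% for *Saa4*, 16.4% for *Steap4*, 26.3% for *Saa2*, 29.8% for *Saa1* and 39.3% for *Mt2*. Among the other pathway genes it was 5.40% for *Bcl3*, 9.27% for *Cxcl1*, 11.6% for *Junb*, 14.1% for *Steap3*, 17.8% for *Il1r1* and 22.8% for *Socs3*. These values depend on the scaling, and that of *Commd1* would be larger with equal totals over the listed genes.

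Of 18 genes for IL-6 and STAT3 signalling, 3 have a row in this table selected on the same contrast, and these 3 are among the 48 of 257 genes called higher (18.7%). *Socs3*, the feedback inhibitor of STAT3 signalling, had 59, 76 and 103 counts in TBG-Vec mice 1 to 3 and 274, 176 and 208 in TBG-*Zrsr1* mice 1 to 3, or 1.47 as a log2 fold change (standard error 0.22). *Junb* and *Bcl3* had log2 fold changes of 1.42 and 0.84. In unscaled counts, TBG-Vec mouse 3 was the highest of its group and TBG-*Zrsr1* mouse 2 the lowest in each of these 3 genes, in *Bcl3* by 2 counts. In *Saa1*, *Saa2* and *Steap4* TBG-Vec mouse 1 was the highest and TBG-*Zrsr1* mouse 3 the lowest. This contrast depends on the scaling, since the totals over the listed genes were 231429, 174448 and 227278 in TBG-*Zrsr1* mice 1 to 3. With equal totals, TBG-*Zrsr1* mouse 3 would be the lowest of its group in *Socs3*, *Junb* and *Bcl3* as well. Of 19 genes for IL-1, TNF and NF-κB signalling, 2 have a row, and both are among the same 48. *Il1r1*, the receptor for IL-1, had 633, 367 and 343 counts in TBG-Vec mice 1 to 3 and 861, 1134 and 830 in TBG-*Zrsr1* mice 1 to 3. It ordered the TBG-Vec mice as *Saa1* did and the TBG-*Zrsr1* mice as *Mt2* did, but through near ties. *Saa1* had 504 and 495 counts in TBG-Vec mice 2 and 3, and *Mt2* 547 and 548 in TBG-*Zrsr1* mice 1 and 2. Nothing is read from these shared orders. *Cxcl1*, a chemokine that draws neutrophils, was higher by 3.22 on the log2 scale (standard error 0.22). In unscaled counts its highest TBG-*Zrsr1* mouse was mouse 3, the lowest in 4 of the 5 genes. With equal totals over the listed genes, its highest TBG-*Zrsr1* mouse would be mouse 2.

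**Figure D4:**
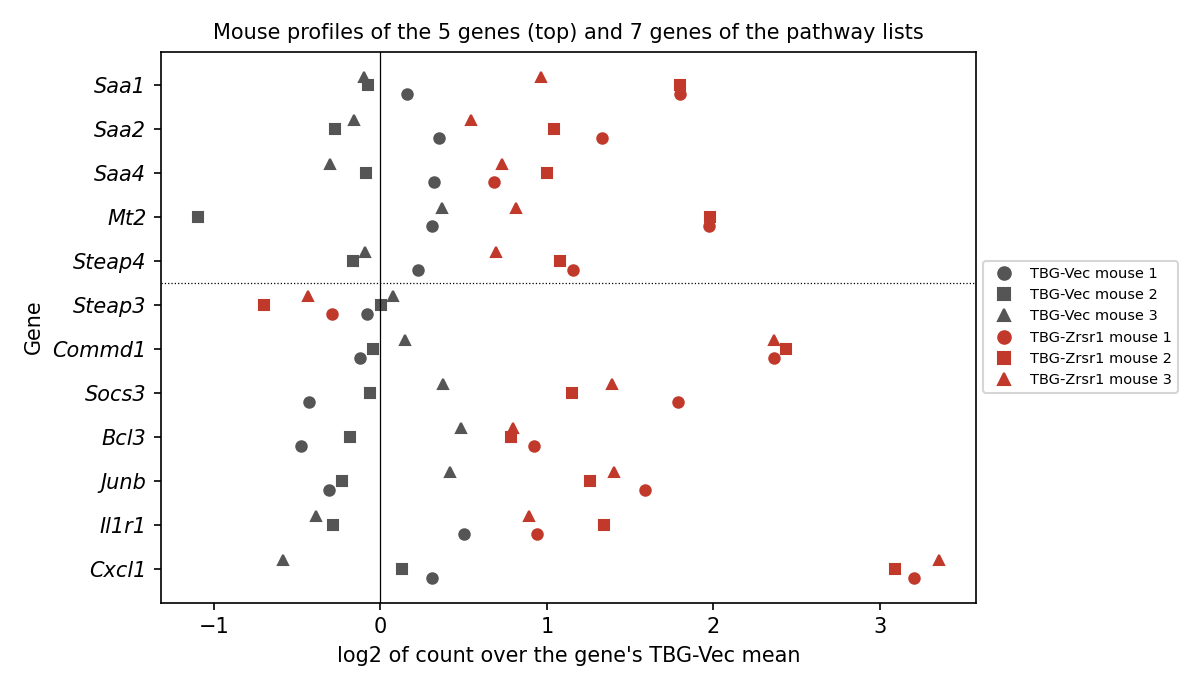
Counts of each mouse over the gene's own TBG-Vec mean on a log2 axis, for the 5 genes above the dotted line and the 7 other pathway genes with a row below it, with TBG-Vec mice in grey and TBG-*Zrsr1* mice in red. *Steap3* is the only one of the 12 in which the red points lie below the grey ones, a direction that 3 of the 4 rescalings between libraries reverse.

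The profiles most like each of the 5 were sought among the other 252 genes, by the root mean square over the 6 mice of the difference in log2 of the count plus 1, relative to the TBG-Vec mean. This distance takes in the difference between the groups, on which the table was selected. Nearness therefore does not show that 2 genes vary together among the mice of a group. In unscaled counts, TBG-Vec mouse 1 was the highest of its group in *Saa1* and the lowest in *Junb* and *Socs3*. *Saa1* was nearest to *Junb* (0.41), *Il1r1* (0.42) and *Socs3* (0.44), and *Mt2* to *Junb* (0.61), *Socs3* (0.67) and *Il1r1* (0.70). *Saa2* was nearest to *Slc37a1* (0.20), *Slc43a1* (0.23) and *Il1r1* (0.27), and *Steap4* to *Slc43a1* (0.17), *Slc37a1* (0.19) and *Gm42035* (0.23). *Saa4* was nearest to *Gcnt4* (0.11), *5033421B08Rik* (0.18) and *Atp11a* (0.19). The medians over the other 60 higher genes were 0.70 for *Saa1*, 0.44 for *Saa2*, 0.33 for *Saa4*, 1.02 for *Mt2* and 0.38 for *Steap4*. Among the 5 genes, *Saa1* was nearest to *Saa2* (0.40) and *Mt2* to *Saa1* (0.48), in both cases nearer than *Junb*. Of all pairs of the 5, *Saa2* and *Steap4* were the closest pair at 0.12, nearer than any of the other 252 genes to either, although they lie on different chromosomes. The next gene to *Saa4* among the 5 was *Steap4* and not an SAA gene, at 0.21. *Slc37a1*, *Gcnt4* and *5033421B08Rik* have low counts, 56 or fewer in every mouse, so their order of mice is set partly by counting error.

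Cell type markers could be read only in part. None of the 10 hepatocyte, 10 neutrophil, 12 macrophage, 8 endothelial and 8 lymphocyte markers has a row, so the labelled tissue cannot be checked against these lists, nor can the immune cells beside the 5 genes. Of 10 adipocyte markers only *Cfd* has one, with 375, 607 and 100 counts in TBG-Vec mice 1 to 3 and 2397, 1024 and 1626 in TBG-*Zrsr1* mice 1 to 3. *Cfd* encodes complement factor D, which is made outside adipocytes as well. Of 10 stellate cell and fibroblast markers *Col1a1* and *Col3a1* have rows, and their summed counts were 441, 550 and 659 in TBG-Vec mice 1 to 3 and 356, 204 and 244 in TBG-*Zrsr1* mice 1 to 3, *Col3a1* being the more abundant. Both were called lower without rescaling, with log2 fold changes of -1.37 for *Col1a1* and -0.95 for *Col3a1*. Over the 4 rescalings *Col3a1* ran from -0.56 to -0.44, within the fold of 1.5, and *Col1a1* came as near to 0 as -0.87. Chosen after its values were seen, the macrophage gene *Cd163*, which is in none of the lists, had 102, 108 and 60 counts in TBG-Vec mice 1 to 3 and 148, 133 and 183 in TBG-*Zrsr1* mice 1 to 3. Its groups did not overlap, as in all 65 genes with a higher mean, its log2 fold change was 0.78 and it was among the 48 genes called higher. The part of any change in cell types in the higher counts of the 5 genes was not tested.

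Among the 65 genes with a higher mean in TBG-*Zrsr1* mice, ordered by the ratio of means, *Mt2* stood at position 7, *Saa1* at 8, *Saa2* at 15, *Steap4* at 17 and *Saa4* at 26. *Zrsr1* itself, the insert, was first, with 198 ± 4.04 and 4422 ± 50.3 counts (SD, n = 3 each). The median log2 fold change of the 5 genes was 1.01, beside 0.74 for the other 60 higher genes and -0.54 over the table. In unscaled counts the insert varied by 1.14% of its mean among the TBG-*Zrsr1* mice. That spread would be larger with equal totals, which were 231429, 174448 and 227278 over the listed genes in mice 1 to 3. Mouse 3, the lowest in 4 of the 5 genes, was not the lowest in *Zrsr1*. The *Zrsr1* counts of 4383, 4479 and 4405 in mice 1 to 3 were so close that nothing is read from their order.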

How the data were processed

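Per the labels, poly(A)-selected liver RNA of 6 mice was sequenced, and the paper's methods name total liver RNA. The authors deposited counts, whole numbers per gene and mouse, for 257 genes. Whether these counts were scaled between libraries is not stated. The count columns of the TBG-Vec mice carry the name GFP. The sources differ on upstream steps: the labels name Bowtie2, RSEM 1.3.1, DESeq2 1.4.5 and mm10, the methods FastQC, HISAT2 on GRCm39, HTSeq and DESeq2. The strand setting is not given. Of the 257 symbols, 241 matched RefSeq GRCm38.p6 and 233 GENCODE M39. The authors' mean, ratio of group means and p-value columns were not used.

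The members and the gene and motif lists were chosen with earlier results of these data known. Genes named are the 5 members, the genes of the lists that have a row, and the 3 profiles most like each member; *Zrsr1* and *Cd163* were added after their values were seen. Counts were fitted with edgeR 4.0.16 (glmQLFit, glmQLFTest, R 4.3.3) with equal library sizes, the filterByExpr filter and Benjamini-Hochberg adjustment over 257 genes. Standard errors were computed as the size of the log2 fold change over the root of F. The fit was tested on simulated data with 1 dispersion for all genes and no differences in depth. That simulation does not cover the unknown depth of these libraries or genes with a wider spread, such as *Mt2*. DESeq2 1.42.0 and limma 3.58.1 served as alternatives. Wilson intervals came from scipy 1.17.1 and alignments from Biopython 1.88. Transcripts are those of GENCODE M39 with a CCDS coding sequence, the canonical one where it has it. Replicate numbers pair no mice.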

Additional observations from a re-analysis of the deposited data

How the results depend on the processing

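The log2 fold changes of the 5 genes stayed positive under all 14 alternatives tried for each, and 54 of 70 values differed from those reported by less than the spread between mice. The other 16 came from rescaling between libraries, which a selected table cannot settle. Among the 54, leaving out the filter on low counts changed no value of the 5 genes, and DESeq2 without scaling gave nearly the same values. These alternatives therefore add little to the count. With TMM factors the values were 2.11 for *Saa1*, 1.53 for *Saa2*, 1.35 for *Saa4* and 1.52 for *Steap4*; with DESeq2 size factors in edgeR, 2.06, 1.48, 1.30 and 1.47; with equal totals over the listed genes, 2.00, 1.41, 1.24 and 1.40; and with DESeq2 and its own size factors, 2.06, 1.48, 1.30 and 1.47. *Mt2* rose from 1.68 to at most 2.22, within its wider spread. These 4 rescalings left 10, 13, 17 and 12 genes called lower, against 108 without rescaling, and each called 65 higher, against 48. Calls by adjusted p alone gave 192 lower genes, and calls beyond 2-fold gave 19 lower and 15 higher. The replicate number as a block, which pairs no mice, gave 1.53 for *Saa1*, 1.00 for *Saa2*, 0.83 for *Saa4*, 1.69 for *Mt2*, 0.99 for *Steap4*, and 107 genes lower and 49 higher. Leaving out each mouse in turn gave 1.44 to 1.80 for *Saa1*, 0.81 to 1.22 for *Saa2*, 0.68 to 1.00 for *Saa4*, 1.34 to 1.98 for *Mt2* and 0.90 to 1.12 for *Steap4*, with 67 to 130 genes called lower, the 67 without TBG-*Zrsr1* mouse 2, and 44 to 53 higher. Summing *Saa1* and *Saa2* gave 1.36, against a mean of 1.29 for the pair. The causes of these shifts were not tested. Library depth is unknown and each group holds 3 mice.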
